A study of Mus musculus with 8 samples.

Results

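The genes described here carry glucose through glycolysis and the pentose phosphate pathway, or sense low oxygen and answer to it. The list holds 40 genes: 4 transporters of glucose and lactate, 9 genes of upper and 8 of lower glycolysis, 4 genes of regulators that set the flow at branch points, the glycogen phosphorylase gene Pygl, 4 genes of the pentose phosphate pathway, 3 genes of oxygen sensing and 7 hypoxia targets. The 40 genes were chosen with earlier results of these data known. A probe set is a group of short probes that read 1 transcript region. All probe sets whose annotated symbol is one of the 40 were taken, by symbol alone. Of the 45101 probe sets on the array, 78 belonged to 35 of these genes alone, and Gapdh was read by 3 control probe sets. Of the 12223 genes tested in the whole series, 34 were on the list. P4ha2 lay under the filter on low signals and was not tested. Bnip3l was read only by probe sets that carry more than 1 symbol, and Gpi1, Eno1 and G6pdx are named only, since the annotation used here gives them no probe set.

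RNA was measured on mouse Affymetrix expression arrays in cells that carry a GFP reporter for AID, the deaminase that starts class switching and somatic hypermutation of antibody genes. The 4 groups had 2 arrays each: GFP-negative and GFP-positive cells from BCR-ABL1 bone marrow, and GFP-negative and GFP-positive cells from splenic B cells stimulated with bacterial lipopolysaccharide (LPS) and interleukin 4 (IL-4). BCR-ABL1 is the fusion tyrosine kinase of Philadelphia chromosome leukaemia, and all 4 groups share the reporter. The labels do not state how kinase and reporter were introduced, the strain and age of the mice, the length of the stimulation or the purification of the cells. Nor do they say if the 2 arrays of a group had separate mice or cultures behind them, so p-values measure only the spread between these arrays, which may be technical.

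Glycolysis splits glucose into pyruvate and yields ATP and NADH, lactate dehydrogenase turns pyruvate into lactate so that NAD can be used again, and the pentose phosphate pathway branches off to make NADPH and the ribose of nucleotides. Under low oxygen the prolyl hydroxylases of the Egln family stop marking the HIF-1 alpha protein for destruction, and HIF-1 then switches on many glycolytic genes together with Vegfa, Bnip3 and Egln3 itself. Activated B cells and leukaemic pre-B cells both take up much glucose, and MYC, which binds the E-box, drives many of the same enzymes.

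The hypoxia response element is short: its core reads ACGTG or GCGTG, and the E-box CACGTG contains it. Windows of 250 bases before annotated starts were taken from RefSeq (mouse build GRCm38.p6) and searched for these letters on both strands, so that each E-box counts as a match on either strand. Of the 40 genes, 37 had a window, and 34 of them (91.9%) held ACGTG or GCGTG in at least 1 window, against 60.5% of the 9882 tested genes with a window and 41.5% of all 27025 genes. As 11 of the genes had several windows, the share was also counted per window: 42 of 52 windows (80.8%) against 54.7% of the 12561 windows of tested genes. The E-box was found for 6 of the 37 genes (16.2%), against 9.59% of tested genes and 6.86% of all genes. Median GC content was 60.8% in the windows of these genes, 59.2% in those of tested genes and 52.4% in all windows, and the median number of CpG pairs was 14, 15 and 6. Tpi1, Eno2 and Gpi1 were the 3 genes with no match. The windows printed here belong to genes on which the results turn: Ldha, with 5 matches that include 2 E-boxes (chr7:46845554-46845803, plus strand, the first of its windows), Pgk1 with 2 (chrX:106186850-106187099, plus strand), Bnip3 with 5 (chr7:138909507-138909756, minus strand), Ankrd37 with 4 (chr8:45999851-46000100, minus strand), Egln3 with 1 (chr12:54203875-54204124, minus strand), Tpi1 with none (chr6:124814159-124814408, minus strand) and Pygl with 2 (chr12:70227684-70227933, minus strand). Each is written 5′ to 3′ in the direction of the gene and ends at the base before the start, with the matched letters in capitals. A match describes these letters and no binding was measured.
Ldha: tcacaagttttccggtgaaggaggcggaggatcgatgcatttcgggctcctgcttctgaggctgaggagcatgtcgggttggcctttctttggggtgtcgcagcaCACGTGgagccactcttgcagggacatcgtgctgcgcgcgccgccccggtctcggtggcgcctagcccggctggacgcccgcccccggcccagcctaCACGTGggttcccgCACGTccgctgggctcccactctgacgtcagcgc
Pgk1: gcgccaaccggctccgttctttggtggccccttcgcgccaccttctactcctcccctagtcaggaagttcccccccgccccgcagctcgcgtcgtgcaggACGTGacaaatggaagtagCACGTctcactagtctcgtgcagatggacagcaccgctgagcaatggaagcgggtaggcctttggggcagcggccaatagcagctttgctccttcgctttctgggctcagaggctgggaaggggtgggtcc
Bnip3: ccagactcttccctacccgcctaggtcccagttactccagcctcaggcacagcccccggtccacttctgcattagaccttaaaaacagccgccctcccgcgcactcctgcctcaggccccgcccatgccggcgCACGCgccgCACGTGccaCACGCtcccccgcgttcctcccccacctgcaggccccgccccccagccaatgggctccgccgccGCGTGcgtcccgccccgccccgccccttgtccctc
Ankrd37: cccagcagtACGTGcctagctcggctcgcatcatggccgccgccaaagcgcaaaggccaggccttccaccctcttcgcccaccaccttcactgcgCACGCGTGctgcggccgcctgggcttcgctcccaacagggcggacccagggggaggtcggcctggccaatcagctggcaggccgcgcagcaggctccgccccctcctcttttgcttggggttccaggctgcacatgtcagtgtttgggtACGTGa
Egln3: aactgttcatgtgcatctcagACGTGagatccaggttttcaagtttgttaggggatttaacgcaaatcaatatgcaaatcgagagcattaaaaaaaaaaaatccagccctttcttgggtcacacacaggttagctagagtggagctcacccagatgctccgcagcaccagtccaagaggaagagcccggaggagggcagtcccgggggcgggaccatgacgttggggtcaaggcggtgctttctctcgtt
Tpi1: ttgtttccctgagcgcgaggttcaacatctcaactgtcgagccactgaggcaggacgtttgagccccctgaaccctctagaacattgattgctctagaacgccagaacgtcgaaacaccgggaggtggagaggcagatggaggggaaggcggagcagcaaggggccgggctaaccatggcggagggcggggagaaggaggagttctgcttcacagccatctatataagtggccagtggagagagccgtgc
Pygl: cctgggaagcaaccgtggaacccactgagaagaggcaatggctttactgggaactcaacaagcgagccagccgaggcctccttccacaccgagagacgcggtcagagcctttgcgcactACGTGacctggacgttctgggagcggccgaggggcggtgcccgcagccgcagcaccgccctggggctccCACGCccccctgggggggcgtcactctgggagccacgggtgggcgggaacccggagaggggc
The match nearest to the start lay 34 bases before it in Ldha, 35 in Bnip3, 6 in Ankrd37, 62 in Pygl, 131 in Pgk1 and 229 in Egln3. These distances run from the start to the first base of the match.

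Signals below are on the quantile normalised scale unless stated, values of a group are given for replicate 1 and then replicate 2, and a floor of 32 marks the lowest readable signal. Differences are log2 fold changes ± standard error (SE) from 1 limma fit of all 8 arrays, and a gene is said to rise or fall only where its p-value, adjusted by Benjamini-Hochberg over all genes tested, was under 0.05. Levels are compared within a probe set and never between genes. With 2 arrays against 2, an exact permutation test could give no p under 0.333, so the calls rest on the fit.

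The spleen GFP-negative arrays stood apart from the other 6. Their trimmed mean intensities on the deposited scale were 497 and 477, against 589 to 594. The summed signal of 12 myeloid marker genes was 77956 to 80112 there, 446 to 483 in the spleen GFP-positive arrays and 717 to 788 in BCR-ABL1 cells; that of the 9 T and NK cell markers with a probe set was 15280 to 16884, 1043 to 1068 and 969 to 1060.5. In the spleen GFP-positive arrays 10 of the 12 myeloid markers were under the filter level, with Ngp, Camp, Csf1r, Itgam and Elane at the floor, and 5 of the 9 T and NK markers were, with Cd3g at the floor. B cell markers were present in all 4 groups, with summed signals of 28413 to 29809 in BCR-ABL1 cells, 45326 to 46118 in spleen GFP-negative and 35601 to 37338 in spleen GFP-positive arrays, and Ms4a1 was near the floor in the BCR-ABL1 GFP-positive arrays (32 and 45.4). Pre-B markers summed to 30109 to 34203 in BCR-ABL1 cells, 6596 to 7109 in spleen GFP-negative and 1019.6 to 1404 in spleen GFP-positive arrays, with Rag2 at the floor on all 4 spleen arrays. Not all 6 markers followed the sum. Igll1 read 476 to 613 in BCR-ABL1 cells, 2230 and 1764 in spleen GFP-negative and 1021 and 673 in spleen GFP-positive arrays. Il7r read 4579 and 4553 in spleen GFP-negative arrays, where Vpreb1 read 32 and 36.1. Between GFP-negative cells 4 of the 6 were higher and 2 lower in BCR-ABL1 cells. Erythroid and megakaryocyte markers stayed between 447 and 567 in every group, and dendritic, stromal and endothelial markers between 774 and 1079.6 in BCR-ABL1 cells and between 2614 and 3172 in spleen cells. That spleen sum hides opposite moves. Itgax read 948 and 1049 in spleen GFP-negative arrays and 32 on both GFP-positive arrays. Flt3 read 145 and 156 against 1914 and 1884. Of the 5 such genes tested, 3 were lower and 1 higher in spleen GFP-positive cells. In bulk RNA, fewer cells of a type and less RNA per cell cannot be told apart, and the part of these markers in each spleen GFP difference below was not tested.

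**Figure D1:**
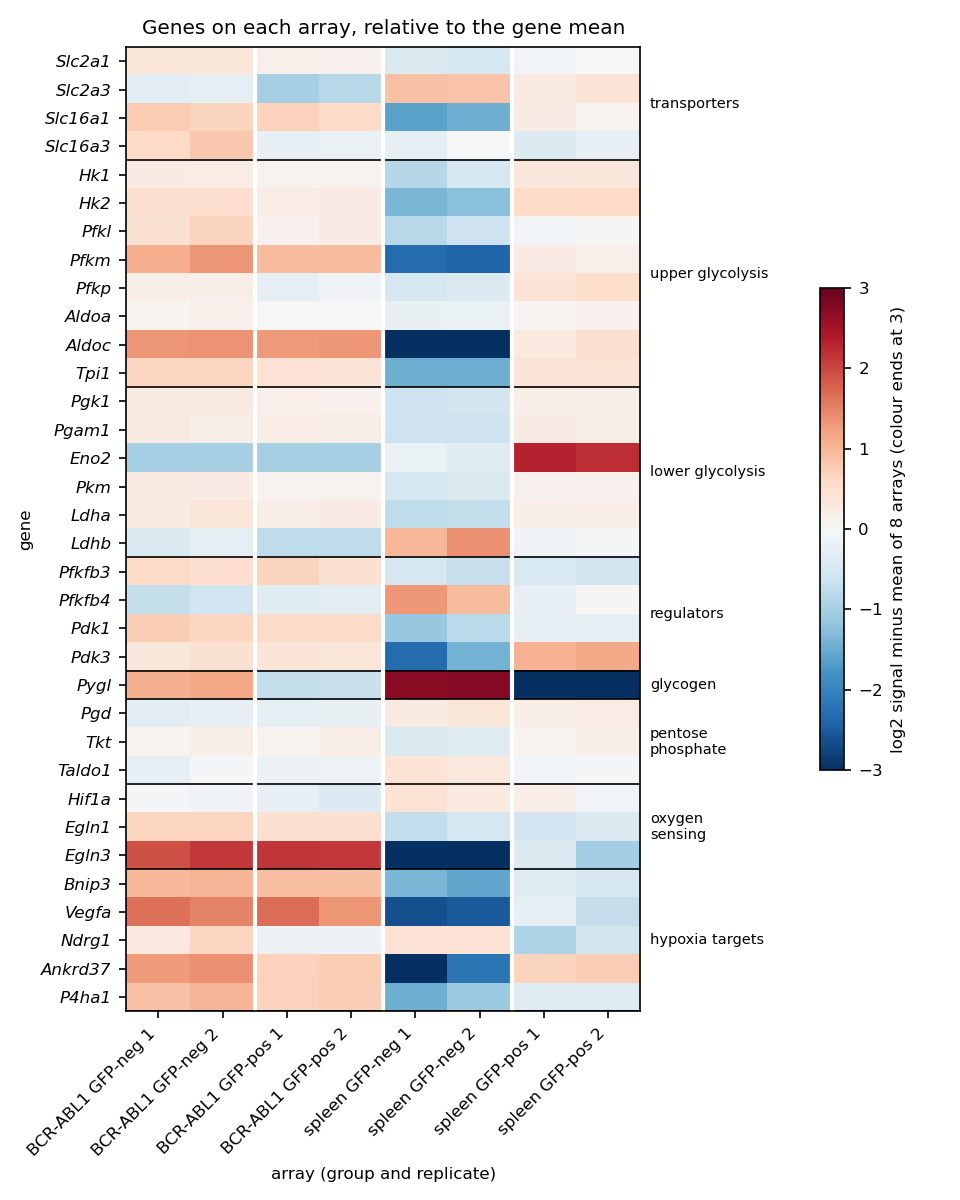
Log2 signal of the 34 tested genes (rows, grouped by role) on each of the 8 arrays (columns), minus the mean of the gene over the 8 arrays; red is above that mean, blue below, and the colour scale ends at 3 log2 units on either side. Most glycolytic genes are lowest on the spleen GFP-negative arrays, and Egln3, Vegfa and Bnip3 are highest in BCR-ABL1 cells.

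In BCR-ABL1 cells no gene of the list was higher in GFP-positive than in GFP-negative cells, and 7 of 34 (20.6%) were lower. Over all genes tested, 3.07% were called higher and 2.30% lower. The glycogen phosphorylase gene Pygl fell most, followed by the lactate exporter gene Slc16a3 and the glucose transporter gene Slc2a3, and smaller falls were those of the enzyme genes Pfkp, which fell by 22.9%, Hk2 and Tpi1 and of the transporter gene Slc2a1, which fell by 14.2%. The median log2 fold change over the 34 genes was -0.13, against 0 over all genes, and 29 of the 34 had a negative value.

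Of the 4 transporter genes, 3 fell in BCR-ABL1 GFP-positive cells. Slc16a3 encodes MCT4, which exports lactate, and read 1368 and 1583 in GFP-negative cells and 769 and 791 in GFP-positive cells. It fell by 0.92 ± 0.12, 1.89-fold. Slc2a3 encodes GLUT3, a glucose transporter of high affinity, and read 1442 and 1498 against 895 and 1014, a log2 fold change of -0.63 ± 0.080. Slc2a1, the gene of the widespread transporter GLUT1, read 7050.2 and 7008 against 6044 and 6018 and fell by 0.22 ± 0.046. In each of these genes both GFP-positive arrays were below both GFP-negative arrays, in a comparison where 2.30% of all genes were called lower. Slc16a1, the gene of the lactate and pyruvate carrier MCT1, read 7407 and 6975 against 7123 and 6577, so that its groups overlapped (adjusted p = 0.831, 95% interval of the difference -0.24 to 0.10).

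Of the 14 glycolytic enzyme genes tested, 3 fell, and all 3 act in the upper pathway. Pfkp, the platelet type phosphofructokinase, read 4622 and 4723 in GFP-negative and 3407 and 3809 in GFP-positive cells (-0.38 ± 0.068). Hk2, the inducible hexokinase that traps glucose as its phosphate, read 3224 and 3236 against 2676 and 2730.0 (-0.26 ± 0.058). Tpi1, which interconverts the triose phosphates, read 7114 and 7105 against 6098 and 5980.2 (-0.24 ± 0.037). No other glycolytic gene passed, and none had a positive value. The liver type phosphofructokinase gene Pfkl had -0.37 (adjusted p = 0.0743), the muscle type gene Pfkm -0.26 (0.391), the pyruvate kinase gene Pkm -0.15 (0.0535), Pgk1 -0.13 (0.0745), Aldoa -0.12 (0.0735) and Ldha -0.10 (0.275). Eno2, the neuronal enolase gene, was at the floor on all 4 BCR-ABL1 arrays and has no fold there.

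The largest difference in BCR-ABL1 cells was that of Pygl, whose enzyme releases glucose units from glycogen. It read 669 and 709 in GFP-negative and 194 and 200.03 in GFP-positive cells, a fall of 1.80 ± 0.13 on the log2 scale, 3.49-fold (adjusted p = 0.000219). The groups lay far apart relative to the spread within them.

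Genes of the pentose phosphate pathway did not pass in BCR-ABL1 cells. The transketolase gene Tkt had -0.00079 (95% interval -0.11 to 0.10), the phosphogluconate dehydrogenase gene Pgd 0.03 (-0.08 to 0.14) and the transaldolase gene Taldo1 -0.02 (-0.17 to 0.14). The regulator genes did not pass either. Pfkfb3 and Pfkfb4, whose enzymes make and break the activator fructose 2,6-bisphosphate, had 0.02 and 0.30. The pyruvate dehydrogenase kinase genes Pdk1 and Pdk3, whose enzymes inhibit pyruvate dehydrogenase in the mitochondrion, had -0.11 and -0.03.

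No gene of oxygen sensing or hypoxia response was called in BCR-ABL1 cells, and 7 of the 8 had negative values. Ndrg1, a stress-responsive gene, had the largest (-0.64 ± 0.16, adjusted p = 0.0703), with 333 and 420.2 in GFP-negative and 240.4 and 239 in GFP-positive cells. Ankrd37, a direct HIF-1 target, read 2299 and 2456 against 1546 and 1621 (-0.59 ± 0.29, adjusted p = 0.422). Its groups did not overlap, and it was called when the 4 BCR-ABL1 arrays were fitted alone (adjusted p = 0.0327). Its spread was widest between the 2 spleen GFP-negative arrays. Hif1a itself had -0.25 (adjusted p = 0.247, and 0.0160 with the mean of its probe sets), the oxygen sensor gene Egln1 -0.17 (0.422) and Egln3 0.11 (0.938). P4ha2, a collagen prolyl hydroxylase gene that was not tested, read 83.7 and 92.0 in GFP-negative and 36.6 and 33.5 in GFP-positive cells and 32 on all spleen arrays.

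Only the call for Pygl was kept under each alternative run in BCR-ABL1 cells. The calls for Slc2a1 (adjusted p = 0.170 to 0.220) and Tpi1 (0.0795 to 0.122) were lost when any 1 of the 4 BCR-ABL1 arrays was left out. Hk2 (0.0853 to 0.303) was lost without any 1 of these or without either spleen GFP-positive array. Pfkp (0.0538 to 0.143) was lost without either BCR-ABL1 GFP-negative array, without GFP-positive replicate 1 or without either spleen GFP-negative array, and Slc16a3 (0.0535 to 0.0569) without GFP-negative replicate 2 or GFP-positive replicate 1. Slc2a3 was kept without each array and lost when the 4 BCR-ABL1 arrays were fitted alone (0.0527). When the arrays were shifted to 1 common median over all probe sets, Slc2a1 (0.0789), Tpi1 (0.0536) and Hk2 (0.0698) were lost. With every probe set above the filter tested, 1 of 3 of Pfkp, 1 of 3 of Tpi1 and 2 of 3 of Slc2a1 were called lower. All had negative values, from -0.43 to -0.27 for Pfkp, -0.24 to -0.23 for Tpi1 and -0.26 to -0.22 for Slc2a1. Both probe sets of Slc2a3 were called lower. With 1 array left out, the number of genes of the list called ranged from 2, without GFP-negative replicate 2 or GFP-positive replicate 1, to 10, without either spleen GFP-negative array. Over all genes, 210 to 242 were called without any 1 BCR-ABL1 array and 837 and 839 without a spleen GFP-negative array, against 656 with all 8.

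In stimulated splenic B cells most of these genes were higher in GFP-positive than in GFP-negative cells. Of the 34 genes 23 rose (67.6%) and 7 fell (20.6%), where 45.7% and 31.4% of all genes were called higher and lower. The median was 0.74 against 0.18 over all genes. Of the 14 glycolytic enzyme genes 13 rose, all but Ldhb, although Aldoa (-0.51) and Pkm (-0.039) were negative after a shift to equal medians over the genes tested, a setting chosen after seeing the data. The largest rises were those of the HIF-1 target Ankrd37 (11.1-fold), the brain type aldolase gene Aldoc (10.7-fold), the kinase gene Pdk3 (7.78-fold) and the oxygen sensor gene Egln3 (at least 6.36-fold, as it was at or just above the floor in GFP-negative cells), and the largest fall was that of Pygl.

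**Figure D2:**
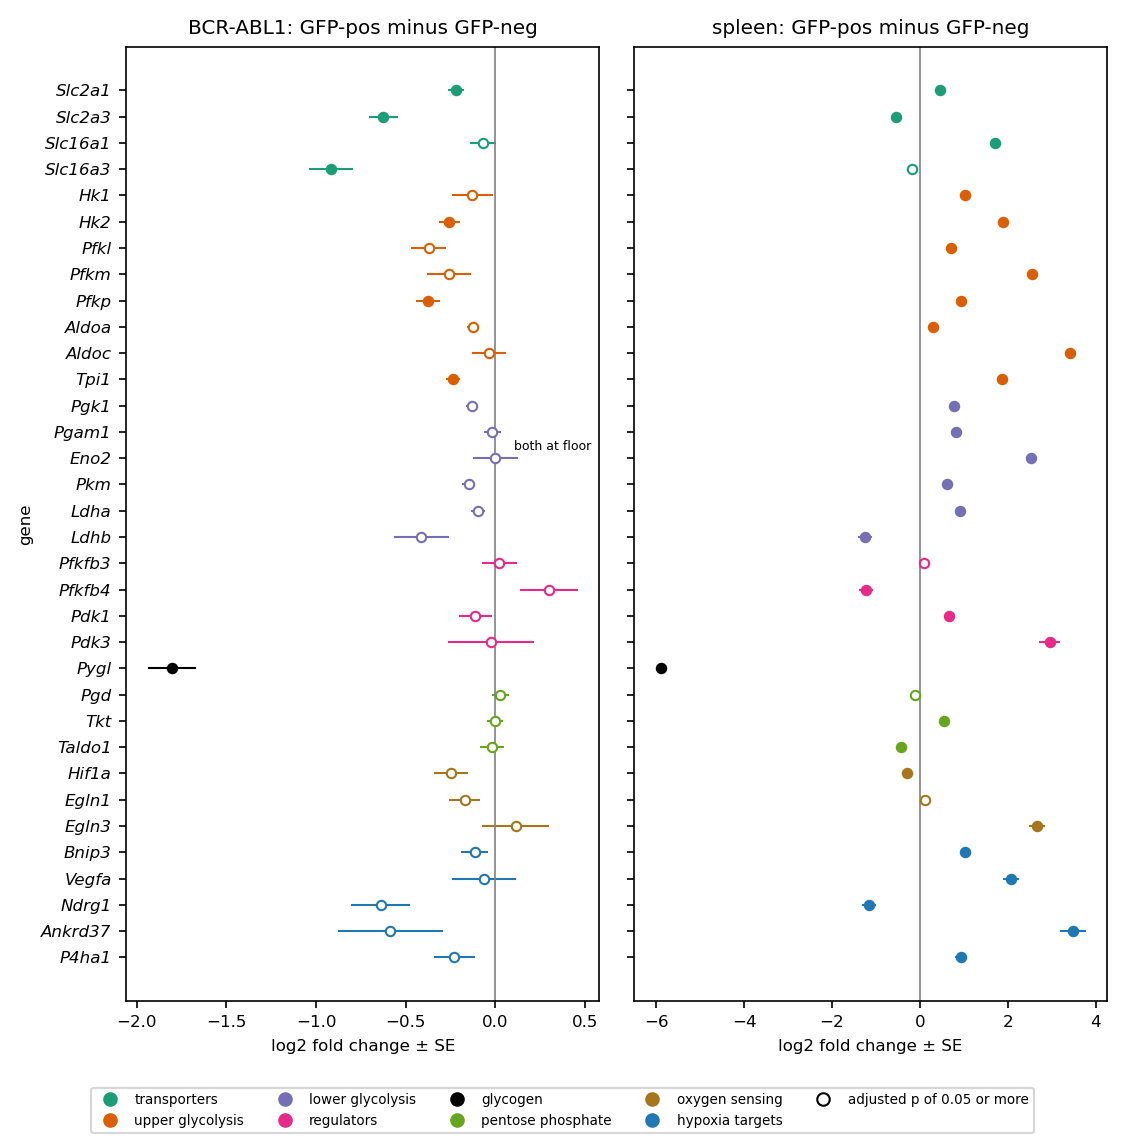
Log2 fold change between GFP-positive and GFP-negative cells (x axis, points with SE, 2 arrays against 2) of each tested gene (y axis, coloured by role) in BCR-ABL1 cells (left) and in spleen cells (right, on a wider axis); filled points had an adjusted p under 0.05, and Eno2 is marked on the left because both groups were at the floor. On the left 7 points are filled and all lie below 0; on the right 23 filled points lie above 0, of which Aldoa, Pkm, Tkt and Slc2a1 turned negative with a shift to equal medians over the genes tested, and 7 below.

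Among transporters, Slc16a1 and Slc2a1 rose and Slc2a3 fell in spleen GFP-positive cells. The lactate carrier gene Slc16a1 read 1436 and 1587 in GFP-negative and 5230.5 and 4726 in GFP-positive cells, a rise of 1.72 ± 0.073, 3.29-fold. Slc2a1 read 4054 and 3819 against 5213 and 5557 (0.45 ± 0.046). Slc2a3 went the other way, with 3291 and 3242 against 2148 and 2362 (-0.54 ± 0.080). The 2 glucose transporter genes thus moved in opposite directions on the normalised scale, while Slc2a1 was negative too (-0.12) with a shift to equal medians over the genes tested. Slc16a3 read 739.6 and 903 against 687 and 765; its groups overlapped and it did not pass (-0.17 ± 0.12, 95% interval -0.45 to 0.11). On the deposited scale, and with the shift over all probe sets, Slc16a3 was positive and called instead (0.37, adjusted p = 0.0144, and 0.53, 0.00202), and with the shift over the genes tested it was called lower (-0.39, 0.0152). With the shift over all probe sets Slc2a3 kept its sign but not its call (-0.13, adjusted p = 0.197).

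All 8 tested genes of upper glycolysis rose in the spleen, although Aldoa turned negative (-0.51) with the shift over the genes tested. Hexokinase gene Hk2 read 889 and 961 in GFP-negative and 3399 and 3471 in GFP-positive cells, a rise of 1.89 ± 0.058, 3.72-fold. Hk1, the constitutive hexokinase, read 477 and 604 against 1095 and 1082 (1.02 ± 0.11). The 3 phosphofructokinase genes, which encode the enzyme of the committed step, all rose. Pfkm read 57.8 and 54.7 against 341 and 323 (2.56 ± 0.12), Pfkp 2901 and 3092 against 5465 and 5948 (0.93 ± 0.068), and Pfkl 1273 and 1464 against 2151 and 2321 (0.71 ± 0.097). Both aldolase genes rose as well, Aldoc from 91.4 and 95.4 to 934 and 1065 (3.42 ± 0.094) and the abundant Aldoa from 10630.2 and 10755 to 12837 and 13409.7 (0.30 ± 0.032). Tpi1 read 1652 and 1649 against 5982 and 6015, a rise of 1.86 ± 0.037, 3.63-fold. In each of these 8 genes all GFP-positive arrays were above all GFP-negative arrays, in a comparison where 45.7% of all genes were called higher.

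In lower glycolysis 5 of 6 tested genes rose, of which Pkm turned negative (-0.039) with the shift over the genes tested. Pgk1, which makes the first ATP of the pathway, read 5459 and 5742 in GFP-negative and 9549 and 9540.4 in GFP-positive cells (0.77 ± 0.034). Pgam1, the mutase that follows, read 3656 and 3655 against 6635 and 6361 (0.83 ± 0.046), and the pyruvate kinase gene Pkm 5674 and 6013 against 8931 and 8931 (0.61 ± 0.035). The enolase gene Eno2 rose from 55.7 and 49.8 to 313 and 296 (2.53 ± 0.12). Its group mean was 32 in both BCR-ABL1 groups, 52.7 in spleen GFP-negative and 304 in spleen GFP-positive cells. Eno2 thus passed the filter on low signals (51.0) through the spleen GFP-positive arrays. Its place among the genes that rose is not independent of that filter. The 2 lactate dehydrogenase subunits went in opposite directions: Ldha, the muscle type subunit, rose from 6243 and 6452 to 11873 and 12163 (0.92 ± 0.039), and Ldhb, the heart type subunit, fell from 184 and 240.1 to 86.9 and 90.1 (-1.25 ± 0.15). The other probe sets of Ldhb that passed the filter also fell, by up to 3.63 on the log2 scale.

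Gapdh, the enzyme gene between Tpi1 and Pgk1, was read only by control probe sets at 3 places along the transcript, on the deposited scale and with no test. Its 5′ probe set was 1.54-fold, its middle probe set 1.61-fold and its 3′ probe set 1.17-fold higher in spleen GFP-positive than in GFP-negative arrays, while in BCR-ABL1 cells the ratios were 0.963, 0.957 and 0.987. The 3′ to 5′ ratio, a sign of RNA length, was 1.93 and 1.88 in the spleen GFP-negative arrays and 1.40 to 1.48 on the other 6. So the size of the spleen difference of Gapdh depended on the place read, and the part of RNA quality in the spleen differences of the other genes was not tested.

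**Figure D3:**
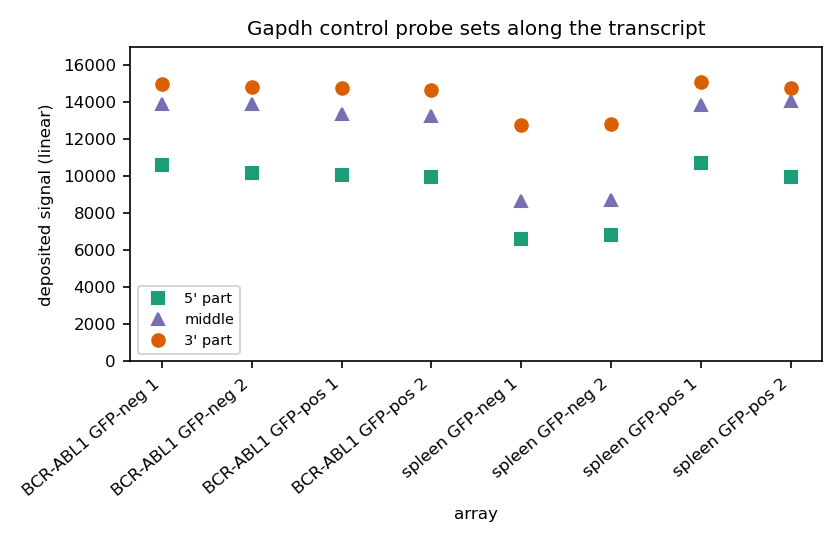
Deposited signal (y axis, linear and from 0) of the 5′, middle and 3′ control probe sets of Gapdh on each of the 8 arrays (x axis). On the 2 spleen GFP-negative arrays the 5′ and middle signals are lowest and the 3′ signal falls least; on the other 6 arrays the 3 signals stay within narrow ranges.

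Genes that direct pyruvate and glycogen moved in both directions in the spleen. Pdk3 read 168 and 313 in GFP-negative and 1725 and 1841 in GFP-positive cells (2.96 ± 0.24), and Pdk1 2173 and 2718 against 3892 and 3861 (0.67 ± 0.092). Pfkfb4, which favours synthesis of fructose 2,6-bisphosphate, fell from 411 and 321 to 140.4 and 171 (-1.23 ± 0.16), while Pfkfb3 did not pass (0.09 ± 0.099, 95% interval -0.14 to 0.32). Pfkfb3 was called higher on the deposited scale (0.61, adjusted p = 0.00107) and with the shift over all probe sets (0.77, 0.000294). Pygl read 2085 and 2153 against 40.4 and 32, a fall of 5.88 ± 0.13 that is a lower bound on its size, since the GFP-positive arrays were at or just above the floor. Pygl was thus the gene of the list that fell in both cell sources by the widest margin, and its probe set was near the floor in spleen GFP-positive cells.

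The pentose phosphate genes did not move together in the spleen. Tkt of the non-oxidative branch rose from 8464 and 8822 to 12231 and 12931 (0.54 ± 0.046, but -0.22 with the shift over the genes tested), whereas Taldo1 of the same branch fell from 4740.5 and 4444 to 3345 and 3427 (-0.44 ± 0.067). Pgd of the oxidative branch read 6515 and 7006 against 6209 and 6335 and did not pass (-0.11 ± 0.048, adjusted p = 0.0719). The call for Taldo1 was lost with the shift over all probe sets (-0.11, adjusted p = 0.225), and Pgd was positive and called there (0.17, 0.0109), whereas with the shift over the genes tested it was called lower (-0.76, 8.6e-06).

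Of the 8 genes of oxygen sensing and hypoxia response, 5 rose and 2 fell in the spleen. Egln3, which HIF-1 induces and which then hydroxylates it, read 32 and 32.6 in GFP-negative and 253 and 167 in GFP-positive cells (2.67 ± 0.19, a lower bound, with 1 GFP-negative array at the floor and the other just above it). Vegfa, the blood vessel growth factor gene, read 59.99 and 65.4 against 307 and 228 (2.08 ± 0.18), and Ankrd37 94.1 and 207 against 1509.8 and 1598 (3.48 ± 0.29). Bnip3, a mitochondrial gene of mitophagy, rose from 1246 and 1095 to 2531 and 2278 (1.04 ± 0.074), and P4ha1, a collagen prolyl hydroxylase, from 399 and 504 to 848 and 857 (0.93 ± 0.12). In contrast, Ndrg1 fell from 363 and 368 to 143 and 186 (-1.16 ± 0.16). Hif1a fell by 0.30 ± 0.095 (adjusted p = 0.0202), with 6261 and 5698 against 5359 and 4419. The Hif1a call was lost without spleen GFP-negative replicate 1 or 2 or GFP-positive replicate 2 (adjusted p = 0.0561 to 0.177), on the deposited scale (0.212), without the filter (0.0904), with the 4 spleen arrays alone (0.0705), with eBayes without a trend (0.0523) and with the shift over all probe sets, where its value was 0.015. Egln1 read 1333 and 1577 against 1491 and 1646 and did not pass (0.11 ± 0.086), but was called on the deposited scale (0.52) and with the shift over all probe sets (0.68).

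The scale moved the small differences in the spleen. The median of all genes was 0.18 as normalised, 0.40 as deposited and 0.55 with the shift over all probe sets, and it was -0.35 after a shift to equal medians over the genes tested, a setting chosen after seeing the data. Under this last setting 17 of the 34 genes were higher and 12 lower, with a median of 0.21, and Aldoa (-0.51), Tkt (-0.22), Slc2a1 (-0.12) and Pkm (-0.039) turned negative, while Pgk1 (0.12, adjusted p = 0.0925) and Pdk1 (0.19, 0.172) were no longer called. The other 17 genes that rose kept their direction and their call on each of these scales.

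Not every probe set of a gene gave the same size of change in the spleen. Of the 21 genes with several probe sets above the filter, 16 had 1 sign throughout, and Aldoa and Pdk1 had probe sets called in opposite directions. The second probe set of Aldoc had 0.03 where the one used had 3.42, that of Egln3 0.30 against 2.67, and that of P4ha1 -0.36 against 0.93. With the mean of their probe sets Aldoc had 1.72 and Egln3 1.48, and the call for P4ha1 was lost (0.28, adjusted p = 0.303). In the other direction, Egln1 had 3.21 on its second probe set against 0.11, and was called with the mean of both (1.66), Hk1 had 2.74 against 1.02 and Pfkp up to 3.38 against 0.93. Pdk1 had 1.96, -0.63 and -0.41 on its other probe sets, with signals of 537 and 376 in GFP-negative and 1955 and 1559 in GFP-positive cells on the first of these. The direction of Pdk1 in the spleen therefore depended on the probe set.

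The GFP difference itself differed between the sources for most genes. In the test of the interaction, 24 of 34 genes (70.6%) had a higher GFP effect in spleen than in BCR-ABL1 cells and 4 (11.8%) a lower one, against 41.0% and 28.0% of all genes. Eno2 is counted among the 24, but its value is its spleen effect alone, since it was at the floor in BCR-ABL1 cells. All 8 upper glycolytic genes were among the 24, with a median difference of 1.70, although Aldoa had -0.37 with the shift over the genes tested. The widest gaps were those of Ankrd37 (4.06 ± 0.42), Aldoc (3.45 ± 0.13) and Pdk3 (2.98 ± 0.34) on one side and Pygl (-4.08 ± 0.19, resting on spleen GFP-positive signals near the floor) on the other. With the mean of probe sets Aldoc had 1.60, below Pfkm (2.82), and its second probe set had -0.25. Pygl fell in both sources and by more in the spleen. Slc2a3 fell in both, and the difference of its effects did not pass (0.09 ± 0.11, 95% interval -0.17 to 0.35). It was called on each other scale, higher on the deposited scale (0.30, adjusted p = 0.0498) and with the shift over all probe sets (0.45, 0.00940), and lower with the shift over the genes tested (-0.43, 0.00782). Hif1a (-0.05 ± 0.13) and Ndrg1 (-0.52 ± 0.23, adjusted p = 0.0753) did not pass, but both were called lower with the shift over the genes tested (-0.64, 0.00350, and -0.87, 0.00624). The call for the difference was lost for Pkm (adjusted p = 0.167), Slc2a1 (0.106) and Pdk1 (0.0974) under that shift, where Tkt (-0.17) turned negative, and for Taldo1 (0.371) and Ldhb (0.0644) with the shift over all probe sets.

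Between the GFP-positive cells of the 2 sources Tpi1, Pgk1, Pgam1, Pkm and Ldha did not pass, while 6 of the 8 listed hypoxia genes tested were higher in BCR-ABL1 cells. Of the 34 genes 13 were higher in BCR-ABL1 GFP-positive cells (38.2%) and 9 lower (26.5%), against 24.8% and 25.5% of all genes, with a median of 0.02 against -0.05 over all genes. Of the 8 genes of oxygen sensing and hypoxia response 6 were higher and 1 lower, and of the 14 glycolytic enzyme genes 2 were higher and 5 lower. These arrays are shared with the GFP comparisons above, so the results are not independent of them.

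**Figure D4:**
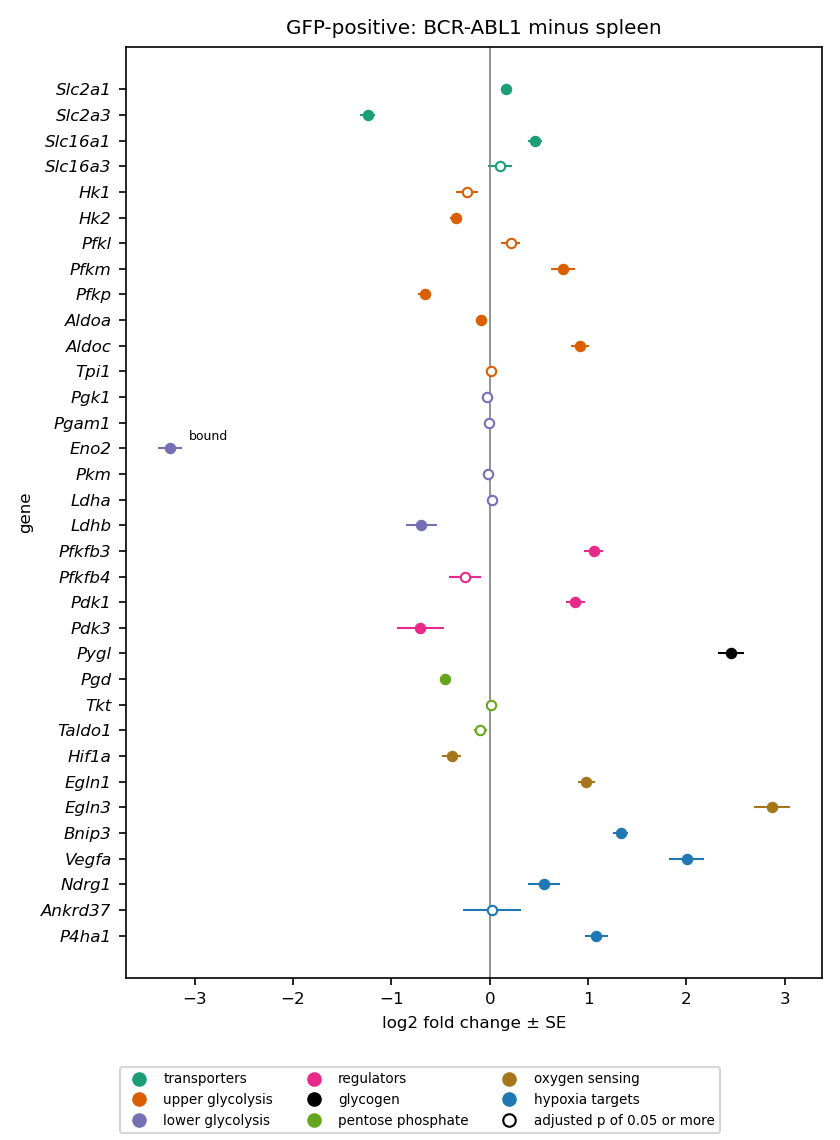
Log2 fold change between BCR-ABL1 and spleen GFP-positive cells (x axis, points with SE, 2 arrays against 2; above 0 is higher in BCR-ABL1 cells) of each tested gene (y axis, coloured by role); filled points had an adjusted p under 0.05, and Eno2 is a bound because it was at the floor in BCR-ABL1 cells. Tpi1, Pgk1, Pgam1, Pkm and Ldha lie within 0.03 of 0, and Egln3, Vegfa, Bnip3, P4ha1 and Egln1 lie from 0.98 to 2.87.

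For the central enzymes the 95% intervals of this difference were narrow on the probe sets used. Ldha, with 12036 and 12469 in BCR-ABL1 and 11873 and 12163 in spleen GFP-positive cells, had 0.03 (-0.06 to 0.12). Pgk1 had -0.03 (-0.11 to 0.05), Pkm -0.02 (-0.10 to 0.06), Tpi1 0.01 (-0.08 to 0.10) and Pgam1 -0.01 (-0.11 to 0.10). Tkt had 0.02 (-0.09 to 0.12). On these probe sets the groups lay close together in each of these genes. Other probe sets went outside the intervals, down to -0.28 for Pgk1 and up to 0.60 for Tkt, and none of them was called. Among genes of single isoforms, Pfkm (0.74 ± 0.12) and Aldoc (0.92 ± 0.094) were higher in BCR-ABL1 cells, whereas Pfkp (-0.66 ± 0.068), Hk2 (-0.35 ± 0.058), Ldhb (-0.70 ± 0.15) and Aldoa (-0.09 ± 0.032) were lower. Eno2 was at least 9.51-fold lower in BCR-ABL1 cells, where it was at the floor, and it passed the filter through the spleen GFP-positive arrays. The Aldoa call was lost without any 1 array except spleen GFP-positive replicate 1 (adjusted p = 0.0523 to 0.241), and under 5 other alternatives (0.0534 to 0.279).

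Transporter, regulator and glycogen genes were split between the GFP-positive cells of the sources. Slc2a3 was lower in BCR-ABL1 cells (-1.24 ± 0.080, 2.36-fold), Slc16a1 (0.46 ± 0.073) and Slc2a1 (0.16 ± 0.046) were higher, and Slc16a3 did not pass (0.11 ± 0.12). Pfkfb3, with 2172 and 1877 against 1005 and 938, was higher by 1.06 ± 0.099 and Pdk1 by 0.87 ± 0.092, whereas Pdk3 was lower (-0.71 ± 0.24). Pygl, with 194 and 200.03 in BCR-ABL1 cells against 40.4 and 32, was at least 5.48-fold higher there, as the spleen arrays were at or just above the floor. The call for Slc2a1 was lost without either BCR-ABL1 GFP-positive array or spleen GFP-positive replicate 1 (adjusted p = 0.0748 to 0.103) and on each other scale (0.0597 to 0.184), and that for Pdk3 without any 1 BCR-ABL1 array or either spleen GFP-positive array (0.0665 to 0.167). That for Pfkfb3 was lost with the mean of its probe sets (0.111). Of the pentose phosphate genes Pgd was lower (-0.46 ± 0.048).

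Of the 8 listed hypoxia genes tested, all but Ankrd37 differed between the 2 kinds of GFP-positive cell. Egln3 read 1513 and 1490.1 in BCR-ABL1 and 253 and 167 in spleen GFP-positive cells (2.87 ± 0.19, 7.31-fold). Vegfa read 1194 and 936 against 307 and 228 (2.00 ± 0.18), and Bnip3 6013 and 6057 against 2531 and 2278 (1.33 ± 0.074). In none of these genes did the groups overlap, in a comparison where 24.8% of all genes were called higher. P4ha1 (1.08 ± 0.12), Egln1 (0.98 ± 0.086) and Ndrg1 (0.55 ± 0.16) were higher as well, and Ankrd37 did not pass (0.03 ± 0.29), with a wide 95% interval of -0.65 to 0.70. Both probe sets of Egln3, Vegfa and P4ha1 were called higher, with 0.87 on the second of Vegfa. The second probe set of Egln1 had 0.26 and was not called. Those of Ndrg1 ran from -0.15 to 0.76, with 3 of 4 called higher. Hif1a was lower in BCR-ABL1 cells (-0.39 ± 0.095). The Hif1a call was lost without BCR-ABL1 GFP-positive replicate 2 or spleen GFP-positive replicate 1 (adjusted p = 0.0610 to 0.0742), and the Ndrg1 call without either BCR-ABL1 GFP-positive array or spleen GFP-positive replicate 1 (0.0946 to 0.147).

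**Figure D5:**
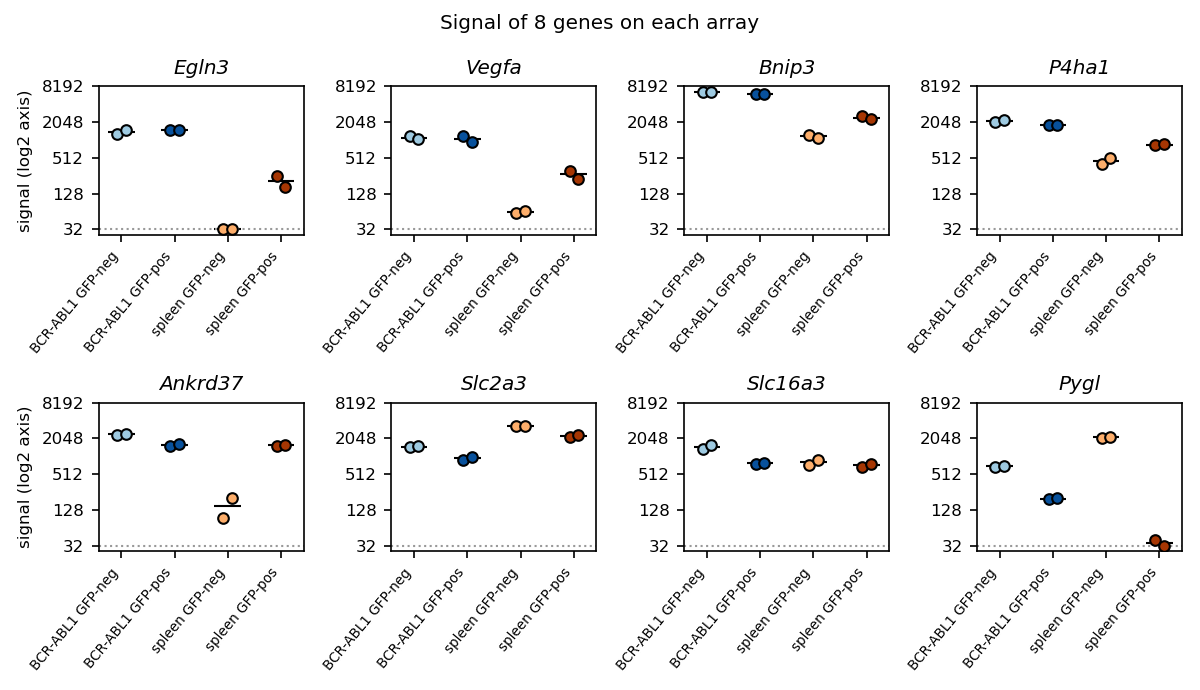
Signal of 8 genes (panels, log2 axis) on each array of the 4 groups (x axis, 2 points per group, lines at the group means; the dotted line is the floor of 32). Egln3, Vegfa, Bnip3 and P4ha1 are higher in both BCR-ABL1 groups than in either spleen group, and Pygl falls from GFP-negative to GFP-positive cells in both sources.

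Between the GFP-negative cells the BCR-ABL1 arrays had the higher signal for most genes. Of the 34 genes 25 (73.5%) were higher and 8 (23.5%) lower than in spleen GFP-negative cells, against 45.7% and 32.8% of all genes, with a median of 0.89 against 0.16. On the probe sets used, the largest positive values were those of Egln3, Aldoc (4.37 ± 0.094), Vegfa (4.14 ± 0.18), Ankrd37 (4.09 ± 0.29) and Pfkm (3.56 ± 0.12). Egln3 was at least 43.0-fold higher on its probe set, with the spleen arrays at or just above the floor. The second probe sets of Egln3 (2.94), Vegfa (2.36) and Aldoc (2.19) were called higher too, with smaller values. Pfkfb4 (-1.78 ± 0.16), Pygl (-1.62 ± 0.13), Ldhb (-1.53 ± 0.15) and Slc2a3 (-1.15 ± 0.080) were lower in BCR-ABL1 cells, as were Pgd, Taldo1 and Hif1a, and Eno2 was at least 1.65-fold lower. Ndrg1 did not pass (0.03 ± 0.16), but was higher in BCR-ABL1 cells on the deposited scale (0.59, adjusted p = 0.00732) and with the shift over all probe sets (0.70, 0.00293). Aldoa (-0.47) and Tkt (-0.17) turned negative with a shift to equal medians over the genes tested, and Pfkp (0.11, adjusted p = 0.198) and Pkm (0.07, 0.298) were no longer called. The Hif1a call was lost without spleen GFP-negative replicate 1 (0.0544) and with the shift over all probe sets (0.112), and the Eno2 call with a floor of 64. The markers of other cells in the spleen GFP-negative arrays given above touch each of these values.

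The order of the 4 group means was the same for several genes of the list, within the hypoxia set and outside it. For Bnip3, P4ha1 and Egln1 the mean was highest in BCR-ABL1 GFP-negative cells. BCR-ABL1 GFP-positive, spleen GFP-positive and spleen GFP-negative cells followed. Vegfa, Ankrd37, Slc2a1, Pfkl, Pfkm and Pdk1 were among other genes with this order, whereas Egln3, Ndrg1 and Hif1a did not have it. The GFP difference within BCR-ABL1 cells did not pass for Bnip3, P4ha1 or Egln1, nor for Vegfa, Ankrd37, Pfkl, Pfkm or Pdk1. Between GFP-positive cells Ankrd37 (0.03) and Pfkl (0.21) did not pass, and the arrays of Ankrd37 overlapped. Pdk1 had probe sets called in opposite directions in the spleen. For these genes the order is therefore one of means only. Within spleen cells the arrays of Egln1 overlapped and the difference did not pass. The second probe set of P4ha1 had a spleen GFP effect of -0.36, which reverses that step. Slc2a3 had another order, with spleen GFP-negative cells highest, then spleen GFP-positive, BCR-ABL1 GFP-negative and BCR-ABL1 GFP-positive cells, and limma called each GFP difference in it; spleen GFP-positive and BCR-ABL1 GFP-negative cells were not compared by a test.

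Other genes of these pathways came from a list that does not overlap the 40. Of 114 such genes 87 were tested, and 3 were higher (3.45%) and 7 lower (8.05%) in BCR-ABL1 GFP-positive cells, against 3.07% and 2.30% of all genes, with a median of -0.03 against 0. Those that fell included the secreted vasodilator gene Adm (-0.94 ± 0.13), the adenylate kinase gene Ak4 (-0.84 ± 0.12) and the urate transporter gene Slc2a9 (-0.59 ± 0.11). The 3 that rose were Epas1, which encodes HIF-2 alpha (0.89 ± 0.17), Slc2a6 (0.75 ± 0.098) and the carbonic anhydrase gene Car9 (0.65 ± 0.15). In the hypoxia subset alone 2 of 28 rose and 5 fell. None of the 15 other genes of glycolysis and gluconeogenesis, the 10 of pyruvate entry, the 8 of the pentose phosphate pathway or the 11 of glycogen passed.

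In the spleen 52 of the 87 pathway genes were higher (59.8%) and 20 lower (23.0%), against 45.7% and 31.4% of all genes, with a median of 0.46 against 0.18. Of the 8 other pentose phosphate genes 7 rose and of the 11 other glycogen genes 8 rose, with none lower in either. Of the 28 other hypoxia genes 14 rose and 9 fell (32.1%), with a median of 0.20. Pdhx, a part of the pyruvate dehydrogenase complex, rose by 3.11 ± 0.22 and the pyruvate carboxylase gene Pcx by 2.52 ± 0.13, and Slc2a9 was at least 5.01-fold higher. Pdk4, a further pyruvate dehydrogenase kinase, and Arrdc4, a glucose-responsive brake on glucose uptake, were at the floor in GFP-positive cells and at least 24.9-fold and 21.7-fold lower, and the testis type lactate dehydrogenase gene Ldhc fell by 2.94 ± 0.12. For the difference between sources 52 of the 87 were higher (59.8%) and 18 lower (20.7%), against 41.0% and 28.0% of all genes.

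Between GFP-positive cells 24 of the 87 pathway genes were higher (27.6%) and 25 lower (28.7%) in BCR-ABL1 cells, near the 24.8% and 25.5% of all genes. Of the 28 other hypoxia genes 11 were higher and 7 lower, with a median of 0.06 against 1.03 over the 8 listed hypoxia genes tested. Mycn, a MYC family gene, read a mean of 9699.9 in BCR-ABL1 and 70.3 in spleen GFP-positive cells (7.11 ± 0.12), the muscle glycogen phosphorylase gene Pygm was higher by 2.65 ± 0.16 and the collagen modifying gene Plod2 by 2.62 ± 0.22. Adm (-5.86 ± 0.13), the phosphorylase kinase gene Phka1 (-2.39 ± 0.16) and Slc2a6 (-2.09 ± 0.098) were lower. Pygm and Pygl, which encode phosphorylases of different tissues, were both higher in BCR-ABL1 than in spleen GFP-positive cells, where Pygl was near the floor. Between GFP-negative cells Pygl was lower in BCR-ABL1 cells (-1.62). Between GFP-negative cells 49 of the 87 were higher (56.3%) and 23 lower (26.4%), against 45.7% and 32.8% of all genes.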

How the data were processed

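RNA from 8 samples (4 groups of 2) was hybridised to Affymetrix mouse expression arrays. The values used are the deposited signal intensity of each probe set, made by the authors with GCOS 1.3, per the submitters' processing notes; for summarisation and scaling, the settings used are not given in the sources at hand, and 2 arrays a group limit the precision.

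The 64 control probe sets were left out, and the other 45037 were quantile normalised, floored at 32 and put on the log2 scale. Of these, 34945 carried 1 gene symbol, 932 several and 9160 none. Probe sets under the 40th percentile of mean log2 signal (5.67, a signal of 51.0) were left out, and the brightest remaining probe set with 1 symbol stood for each of 12223 genes. One limma model with the 4 groups (lmFit, then eBayes with a trend, 4 residual degrees of freedom) gave the GFP effect in each source, the difference of these effects, and the source effect in GFP-positive and in GFP-negative cells. Benjamini-Hochberg adjustment ran over the 12223 genes, with calls at 0.05. R 4.3.3, limma 3.58.1 and Python 3.11 were used. On simulated data with 200 of 12223 genes changed by 1 log2 unit, the fit for the GFP effect in BCR-ABL1 cells recovered 200 and made 12 false calls. The simulated noise was normal, with a spread set by mean signal alone. All listed genes called in BCR-ABL1 cells except Pygl changed by less than 1 log2 unit. The simulation therefore checks the code and cannot tell how reliable those smaller calls are.

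The 40 genes, the 114 pathway genes and the 6 marker lists were chosen with earlier results of these data known. Any of the 40 could be named; of the pathway genes, up to 3 called higher and 3 called lower with the largest fold in each contrast. The 20 alternatives were 8 that leave out 1 array and 12 that change the scale, floor, filter, probe sets, model or arrays fitted; 1 scale was chosen after seeing the data. Promoter sequences are from RefSeq (GRCm38.p6).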

Additional observations from a re-analysis of the deposited data

Results flagged for a closer look

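In 28 of the 34 genes tested the GFP effect in spleen cells differed from that in BCR-ABL1 cells, by limma's test of the interaction over all genes, where 41.0% and 28.0% of all genes were called higher and lower. The values here are the spleen effect minus the BCR-ABL1 effect in log2 units. Among transporters they were 0.67 for Slc2a1, 0.74 for Slc16a3 and 1.79 for Slc16a1. In upper glycolysis they were 0.42 for Aldoa, 1.08 for Pfkl, 1.15 for Hk1, 1.304 for Pfkp, 2.10 for Tpi1, 2.15 for Hk2, 2.82 for Pfkm and 3.45 for Aldoc. In lower glycolysis they were 0.76 for Pkm, 0.85 for Pgam1, 0.90 for Pgk1, 1.02 for Ldha, 2.53 for Eno2 and -0.83 for Ldhb; that of Eno2 is its spleen effect alone, since it was at the floor on all 4 BCR-ABL1 arrays. The regulator genes had 0.79 for Pdk1, 2.98 for Pdk3 and -1.52 for Pfkfb4, and the glycogen gene Pygl had -4.08. In the pentose phosphate pathway Tkt had 0.54 and Taldo1 -0.42. Of the hypoxia genes, Bnip3 had 1.15, P4ha1 1.16, Vegfa 2.14, Egln3 2.56 and Ankrd37 4.06. P4ha1 was not called with the mean of its probe sets (0.53, adjusted p = 0.187). The second probe sets of Egln3 (0.04) and Aldoc (-0.25) were not called. Those of Pdk1 ran from -0.66 to 2.11, with 2 of 4 called higher. The spleen GFP-negative arrays, which carried the myeloid and T cell markers, enter each of these values, and their part was not tested.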

How the results depend on the processing

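Calls kept under all 20 alternatives were 1 of 7 for the GFP effect in BCR-ABL1 cells, 20 of 30 in the spleen, 20 of 28 for the difference, 16 of 22 for the source effect in GFP-positive cells and 27 of 33 in GFP-negative cells. Leaving out 1 array gave 210 to 839 genes called in BCR-ABL1 cells (656 with all) and 2 to 10 of the listed genes (7 with all); 4 were called with equal medians and 3 with eBayes without a trend. Signs of values called on at least 1 of the 2 scales compared turned in the spleen GFP effect on the deposited scale (Slc16a3 0.37), with equal medians (Slc16a3 0.53, Pgd 0.17, Hif1a 0.015) and with equal medians of the genes tested, chosen after seeing the data (Aldoa -0.51, Tkt -0.22, Pkm -0.039, Slc2a1 -0.12); in the difference under the last setting (Aldoa -0.37, Tkt -0.17, Slc2a3 -0.43); and in the source effect in GFP-negative cells (Aldoa -0.47, Tkt -0.17). Values called on neither turned as well, with equal medians of the genes tested in the spleen (Egln1 -0.24, Pfkfb3 -0.15) and the difference (Egln1 -0.05, Pfkfb3 -0.14), and with equal medians in the difference (Hif1a 0.24, Pgd 0.13, Ndrg1 0.012), among others. The cause was not tested. On these 4 scales, in the order normalised, deposited, equal medians and equal medians of the genes tested, calls in the spleen were 59.2%, 69.2%, 75.4% and 35.4% higher, those for the difference 59.4%, 69.6%, 75.4% and 35.8%, and those between GFP-negative cells 58.2%, 68.7%, 73.1% and 35.9%. The replicate numbers share only a number, as the labels do not say that they pair the samples (correlation of deviations 0.129 in BCR-ABL1 and 0.274 in spleen cells, 2 pairs each). With the replicate block 12 of the listed genes were called in BCR-ABL1 cells, adding Aldoa, Pgk1, Pkm, Hif1a and Pfkl, and the block added Pgd in the spleen, Pgd and Egln1 in the difference and Pfkl between GFP-positive cells. With 2 arrays a group, and genes near the floor of 32, small differences are the least certain.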
